A study of Mus musculus with 4 samples.

Results

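The acyl-CoA thioesterase (Acot) genes were followed in mouse subcutaneous white adipose tissue, which lies beneath the skin. The 10 genes described are Acot1, Acot2, Acot3, Acot4, Acot7, Acot8, Acot9, Acot11, Acot12 and Acot13, picked by symbol from the 51912 genes of the deposited table. The family was put forward with the results of these libraries known, Acot11 foremost among them. Fold changes between treatments are therefore descriptions, and no p-value below is offered as support for the family. RNA sequencing was done on tissue of C57BL/6 mice labelled as aged 8 weeks. Vehicle mice had received dimethyl sulfoxide (DMSO) and treated mice BML-260, which is known to inhibit the phosphatase DUSP22. The 4 libraries are called vehicle A, vehicle B, BML-260 A and BML-260 B. The sources used here do not give the dose, route or duration of treatment, nor how the mice of the study map onto the libraries. All p-values thus reflect the spread among 4 libraries, which may be technical. Total expected counts lay between 19999836 and 23726781 per library.

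Acyl-CoA thioesterases split a fatty acyl-CoA into the free fatty acid and coenzyme A, the reverse of the activation step run by acyl-CoA synthetases. The family holds structurally unrelated enzymes that do the same chemistry in different places: type I enzymes (Acot1 to Acot6) share an alpha/beta hydrolase fold and type II enzymes (Acot7 to Acot13) a hotdog fold. Acot1 is cytosolic, Acot2 lies in the mitochondrial matrix, Acot3, Acot4 and Acot8 are peroxisomal, and Acot9 and Acot13 are mitochondrial or attached to mitochondria. Acot11, once named brown fat inducible thioesterase, and Acot12 carry a lipid-binding START domain, and Acot11 is known for its induction in brown adipose tissue of mice kept in the cold.

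All 10 genes matched GENCODE vM21 (GRCm38) by identifier and are annotated as protein coding. Acot11 (ENSMUSG00000034853) lies on the minus strand of chromosome 4 at 106744555 to 106804998, with 4 coding transcripts of 4 to 16 exons. RefSeq lists 2 promoter windows for it, which start 5176 bases apart. Both are shown because Acot11 was the member with the largest difference between treatments. Each runs from 250 bases before to 50 bases after the annotated start (GRCm38.p6, read along the minus strand), and capitals mark the CCAAT box (CCAAT), the GC box (GGGCGG) and the E box (CACGTG) on either strand.
Acot11 upstream start, chr4:106804958-106805257: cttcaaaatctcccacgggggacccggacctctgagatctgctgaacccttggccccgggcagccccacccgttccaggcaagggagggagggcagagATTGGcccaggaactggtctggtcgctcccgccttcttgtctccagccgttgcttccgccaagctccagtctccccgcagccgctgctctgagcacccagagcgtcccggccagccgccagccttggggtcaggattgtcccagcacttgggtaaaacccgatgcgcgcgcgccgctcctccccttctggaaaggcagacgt
Acot11 downstream start, chr4:106799782-106800081: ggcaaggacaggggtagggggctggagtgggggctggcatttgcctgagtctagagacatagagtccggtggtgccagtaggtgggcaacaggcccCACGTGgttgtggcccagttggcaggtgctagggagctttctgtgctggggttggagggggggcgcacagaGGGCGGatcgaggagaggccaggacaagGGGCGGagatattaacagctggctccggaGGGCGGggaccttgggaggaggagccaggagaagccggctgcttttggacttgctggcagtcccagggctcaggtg

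The windows differ in these letters. The upstream one holds CCAAT, on the reverse strand, which 37.4% of the 32851 promoter windows in the RefSeq table hold. The downstream one holds GGGCGG, found in 35.7% of all windows, and CACGTG, found in 7.15%. Neither holds AGGTCA (16.3% of windows), its direct repeat spaced by 1 base (0.0396%), TCAAGGTCA (0.423%), TGACG (20.8%) or TGACGTCA (1.79%), searched on both strands. AGGTCA lies within the longer nuclear receptor motifs, and TGACG within TGACGTCA. These are letter matches in short windows and carry no information on which factor binds. For 9 of the 10 members a window was listed, and AGGTCA occurred in those of Acot3, Acot4 and Acot12. Which of the 2 Acot11 starts was used cannot be told from gene-level counts.

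The type I genes sit side by side. Acot2, Acot1, Acot4 and Acot3, with Acot5 and Acot6, lie in this order on the plus strand of chromosome 12 within 123.5 kb (83987861 to 84111349). Acot1 and Acot2 are near copies, with 95.6% identity over aligned coding bases. A stretch of 60 coding bases with their densest differences is shown. Within aligned coding bases, it is on such letters that reads of the pair can be told apart. Exon bases outside the coding sequence were not compared (merged exons hold 3919 bases in Acot1 and 2196 in Acot2). Capitals mark the 13 positions that differ, and bases are counted from the start codon.
Acot1, coding bases 823 to 882: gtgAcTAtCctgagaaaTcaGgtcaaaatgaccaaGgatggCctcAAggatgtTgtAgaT
Acot2, coding bases 946 to 1005: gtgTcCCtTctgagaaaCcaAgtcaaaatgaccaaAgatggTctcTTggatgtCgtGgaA

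Elsewhere the pair runs identical for up to 273 bases. Of all 50-base windows in the coding sequence of Acot1, 40.9% occurred in no other Acot gene, against 54.7% for Acot2, 79.1% for Acot3 and 79.4% for Acot4. The share was 100% for Acot7, Acot8, Acot11, Acot12 and Acot13. It was 75.1% for Acot9, whose coding sequence is 97.2% identical to that of Acot10, a gene with 0 counts in all 4 libraries. The window length is arbitrary, as the sources used here give no read length. The deposited counts of Acot1 and Acot2 have decimals, as estimated counts of shared reads do, and are uncertain for that reason. Those of Acot4 and Acot8 have decimals as well (300.23 and 239.08 in vehicle A), with the same uncertainty. The shares of windows above cover overlap with other Acot genes only.

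Acot13 was the most abundant member per unit of length in vehicle tissue. Levels of different genes are compared as FPKM (fragments scaled for transcript length and library size). Acot13 lay at 50.9 ± 1.80 FPKM in vehicle (SD, n = 2, as for the next values), Acot9 at 24.7 ± 1.11, and Acot8 at 18.4 ± 1.02. Acot7 lay at 16.2 ± 3.52, and its values overlapped those of Acot8, so the order of these neighbours is not settled. Acot2 followed at 10.2 ± 0.0354, Acot11 at 2.95 ± 0.494, Acot4 at 2.43 ± 0.041 and Acot1 at 1.2 ± 0.469. All other neighbours in this order did not overlap in the vehicle libraries, although 2 libraries give little room for overlap. Acot3 and Acot12 were at the limit of detection.

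**Figure D1:**
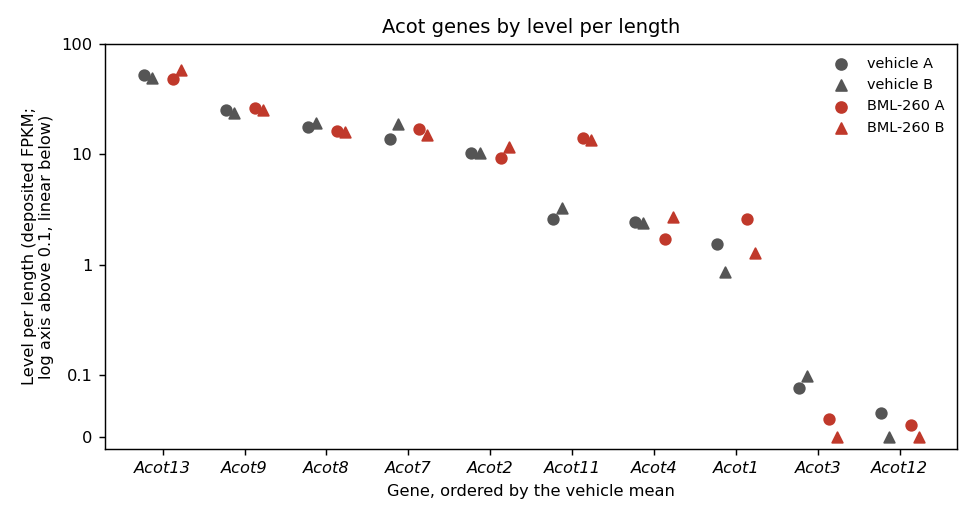
Deposited FPKM (vertical axis, log scale above 0.1 and linear below) of the 10 Acot genes in each library, ordered by the vehicle mean, with vehicle in grey, BML-260 in red, circles for libraries A and triangles for libraries B. Acot11 moves from 2.60 and 3.30 FPKM with vehicle to 14.0 and 13.6 with BML-260, while Acot13 stays on top in every library.

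With BML-260, Acot11 moved from place 6 to place 5 in this order. It made up 2.07% and 2.57% of the summed FPKM of the 10 genes in vehicle A and B, and 10.3% and 9.52% in BML-260 A and B. The sum over the 9 other members was 123 and 125 FPKM in vehicle and 121 and 130 in BML-260, so the groups overlapped. In bulk tissue, fewer cells of a type and less RNA per cell cannot be told apart, for these and all later values.

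Acot11 was higher in both BML-260 libraries than in both vehicle libraries. Its level as CPM (counts scaled for library size, used here to compare 1 gene between libraries) was 12.8 and 17.9 for vehicle A and B, then 71.7 and 74.4 for BML-260 A and B. The groups lay far apart, and the BML-260 libraries nearly coincided, whereas vehicle B was 1.40 times vehicle A. These levels rest on 270, 413, 1488 and 1633 reads. The fold change was 4.76 (95% confidence interval 3.41 to 6.63), or 2.25 on the log2 scale (SE 0.19). Its adjusted p (edgeR quasi-likelihood, Benjamini-Hochberg over all 15643 tested genes) was 0.205, above the threshold of 0.05, while DESeq2 gave 2.43e-18. The authors' deposited table gives Acot11 a log2 fold change of 1.99 and an adjusted p of 2.91e-18.

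**Figure D2:**
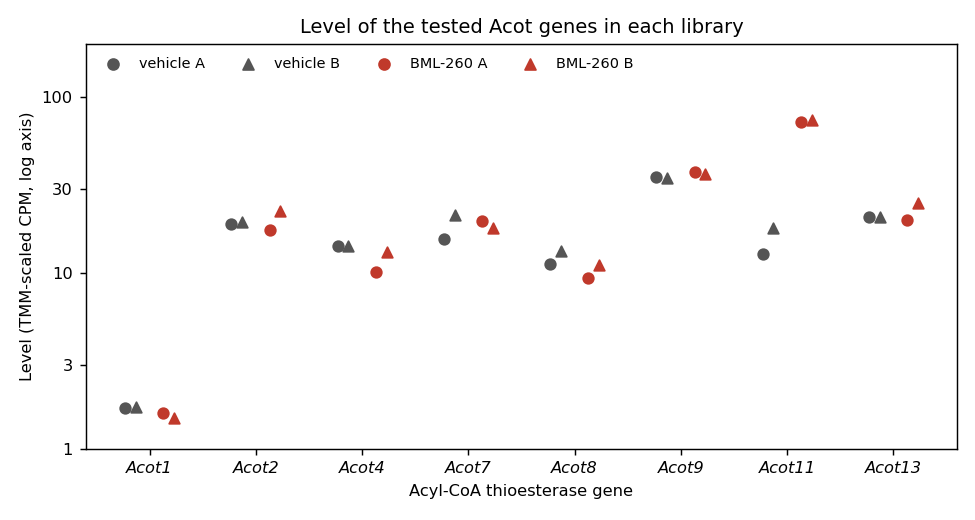
TMM-scaled CPM (vertical axis, log scale) of the 8 Acot genes with enough counts for the test, in each library, with vehicle in grey, BML-260 in red, circles for libraries A and triangles for libraries B. Acot11 stands at 12.8 and 17.9 CPM in the vehicle libraries and at 71.7 and 74.4 in the BML-260 libraries, while the points of the other 7 genes lie close together across treatments.

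Counts and FPKM of Acot11 moved in step. The length that a gene's count and FPKM jointly imply, a reading of which transcripts the authors' estimate gave the reads to, was 5.08 and 5.43 kb in vehicle and 5.31 and 5.05 kb in BML-260. It thus varied 1.08-fold among libraries while the level varied several-fold, beside a median of 1.11-fold over 12780 genes with at least 30 counts in every library. Fam151a, on the opposite strand, overlaps the end of Acot11, and it had 0 counts in all 4 libraries.

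Markers of other cell types moved between the same libraries. Skeletal muscle markers (23 of 23 with values above 0 in the table) took 0.0593% and 1.42% of the counts of vehicle A and B. They took 4.21% and 5.68% of those of BML-260 A and B. All 23 were higher in CPM in both BML-260 libraries than in either vehicle library, as were 22.9% of all tested genes. Of the 23, edgeR and DESeq2 each called 0, beside 0.00639% and 2.1% of all tested genes called higher. Ckm, the muscle creatine kinase, lay at 42.6 and 1480 CPM in vehicle and at 4020 and 6300 in BML-260. Between the vehicle libraries the share of counts of the muscle markers differed 23.9-fold and Acot11 1.40-fold. The mean muscle level on the log2 scale was 4.22 and 8.33 in vehicle and 9.87 and 10.44 in BML-260. It thus lay higher in both BML-260 libraries, so a term for it cannot tell muscle and treatment apart. With the mean muscle level as a term of the model (1 residual degree of freedom), the log2 fold change of Acot11 was 1.82 (SE 0.25, edgeR adjusted p = 1). It was 2.0 without vehicle A, the library with the least muscle RNA, and 2.51 without vehicle B, where Acot11 was called (edgeR adjusted p = 0.00504). That fit takes its spread from the BML-260 libraries alone and assumes that the lone vehicle library varies like them, and it called 300 genes higher, against 1 with all 4 libraries.

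Brown and beige adipocyte markers took 0.0196% and 0.0211% of counts in vehicle and 0.0638% and 0.0628% in BML-260. Of these 10 genes edgeR called 1 higher (Ucp1) and DESeq2 called 7 higher, beside 0.00639% and 2.1% of all tested genes. Ucp1, the proton carrier of heat-producing fat, lay at 7.88 and 9.68 CPM in vehicle and at 251 and 263 in BML-260. Between the libraries of a group Ucp1 differed 1.23-fold in vehicle and 1.05-fold in BML-260, and Acot11 1.40-fold and 1.04-fold. Adipocyte markers, which define the labelled tissue, were abundant in every library (4.69% and 4.60% of counts in vehicle, 2.85% and 3.70% in BML-260). All 12 had fold changes below zero, as had 7429 of all 15643 tested genes, with a median of -0.37 on the log2 scale. DESeq2 called 1 of the 12 lower, beside 0.505% of all tested genes. B cell markers were highest in BML-260 A, with Cd79a at 38.1 CPM against 0.285 to 0.911 elsewhere. The T cell gene Tcf7 lay at 25.4 CPM in the same library against 0.665 to 1.9 elsewhere. The T and NK cell markers together took 0.013% of counts there, against 0.00162% to 0.00299% elsewhere. Of these markers, Gzma was highest in BML-260 B instead (5.83 CPM, against 4.29 in BML-260 A). The most abundant macrophage marker, Lyz2, lay at 646 and 703 CPM in vehicle and at 1020 and 425 in BML-260. Of the 8 macrophage markers, 6 had fold changes above zero and 2, Cd163 and Mertk, below zero. The liver gene Alb lay at 45.8 and 35.4 CPM in vehicle and at 21.1 and 22.8 in BML-260. The other 3 of the 4 tested liver markers had fold changes above zero. The epithelial gene Cdh1 lay at 2.09 and 1.69 CPM in vehicle and at 0.674 and 1.64 in BML-260. The part of brown or beige adipocyte, adipocyte and muscle RNA in the Acot11 level was not tested, as the muscle term cannot tell muscle and treatment apart.

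**Figure D3:**
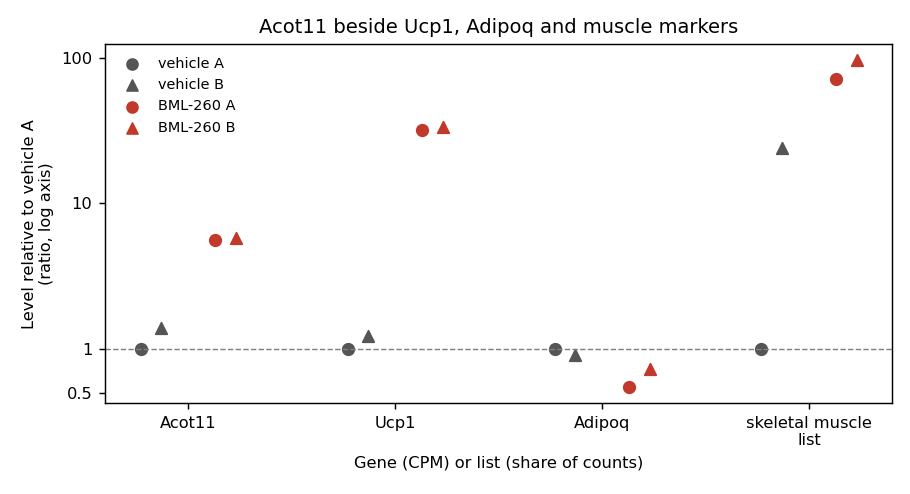
Level of Acot11, Ucp1 and Adipoq (CPM) and share of counts of the skeletal muscle list in each library, as a ratio to vehicle A (vertical axis, log scale), with vehicle in grey, BML-260 in red, circles for libraries A and triangles for libraries B. In vehicle B the muscle list stands at 23.9 times vehicle A and Acot11 at 1.40 times, and in the BML-260 libraries Acot11 stands at 5.60 and 5.81 times.

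The 5 genes whose pattern lay nearest to that of Acot11, by Euclidean distance of centred log2 CPM over 4 libraries among 12907 genes, were Pdk4 (0.123), Fhod3 (0.167), Rbm20 (0.304), Mef2c (0.349) and Asb12 (0.366). Pdk4, which encodes a kinase that shuts off pyruvate dehydrogenase, lay at 56.1 and 81.9 CPM in vehicle and at 295 and 338 in BML-260. Mef2c, a transcription factor gene, lay at 23.6 and 32.9 CPM in vehicle and at 103 and 108 in BML-260. The points share libraries and depth, and 4 libraries can bring many genes close to each other. Skeletal muscle markers were also higher in both BML-260 libraries, and their part in these 5 patterns was not tested.

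The mitochondrial members differed little between treatments. Acot13, an enzyme for long-chain acyl-CoA, lay at 20.9 and 20.9 CPM in vehicle and at 19.9 and 24.8 in BML-260, so that the BML-260 values enclosed those of vehicle. Acot9, which takes short and long chains in the mitochondrion, lay at 35.1 and 34.7 CPM in vehicle and at 37.4 and 36.4 in BML-260. Its groups did not overlap in CPM but did in FPKM (25.5 and 23.9 in vehicle, 26.2 and 25.2 in BML-260). Its log2 fold change of 0.08 (SE 0.11) came with a 95% confidence interval of -0.21 to 0.37. Acot2 lay at 18.9 and 19.5 CPM in vehicle and at 17.6 and 22.6 in BML-260, again with the BML-260 values on either side. Log2 fold changes were 0.10 (SE 0.16) for Acot13 and 0.06 (SE 0.17) for Acot2. Leaving out BML-260 B turned their direction, to -0.08 for Acot13 and -0.13 for Acot2.

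Acot7, a cytosolic enzyme best known from brain, varied more within vehicle than between treatments. It lay at 15.5 CPM in vehicle A and 21.2 in vehicle B, and at 19.7 and 17.9 in BML-260, so the BML-260 values fell inside the vehicle range. Its log2 fold change of 0.04 (SE 0.19) was -0.20 without vehicle A, 0.28 without vehicle B and -0.34 with the muscle term. Its direction was therefore not fixed by these data.

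Neither of the tested peroxisomal members, Acot4 and Acot8, was called. Acot8, which acts on a wide range of chain lengths, lay at 11.3 and 13.3 CPM in vehicle and at 9.39 and 11.1 in BML-260. Acot4, whose mouse enzyme prefers succinyl-CoA, lay at 14.2 in each vehicle library and at 10.1 and 13.2 in BML-260. Neither gene overlapped between groups in CPM, but BML-260 B of each came close to the vehicle values. In FPKM, Acot4 lay at 2.455 and 2.397 in vehicle and at 1.696 and 2.731 in BML-260, so its groups overlapped. The length implied by count and FPKM for Acot4 was 5.99 and 5.95 kb in vehicle and 6.15 and 4.46 kb in BML-260. The log2 fold change was -0.26 for Acot8 (SE 0.19, 95% confidence interval -0.75 to 0.23) and -0.29 for Acot4 (SE 0.19, -0.78 to 0.20). Acot8 overlaps the end of Snx21 on the other strand, and Acot4 and Acot3 overlap the antisense gene 4732463B04Rik. Without a stated strand setting, reads from shared bases of these pairs could not be told apart. Expected counts of Acot8 and Snx21 were 239.08 and 686.92 in vehicle A, but whole in BML-260 A (195 and 649). Those of Acot4 and 4732463B04Rik were 300.23 and 7.77 in vehicle A. Counts of Acot4 and Acot8 thus carry the decimals of shared reads together with these neighbours. Gm49366, which overlaps Acot4 and Acot3 on their own strand, had 0 counts in all 4 libraries. Snx21 lay at 32.6 and 36.0 CPM in vehicle and at 31.3 and 32.8 in BML-260.

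Acot1, the cytosolic near copy of Acot2, gave opposite directions in the deposited units. Its expected counts were 35.66 and 39.55 in vehicle and 32.87 and 33.40 in BML-260, or 1.71 and 1.73 CPM against 1.59 and 1.5. Its FPKM values were 1.53 and 0.865 in vehicle and 2.59 and 1.28 in BML-260, which overlapped and had the higher mean in BML-260. The log2 fold change was -0.15 from counts (SE 0.33) and 0.62 from log2(FPKM + 0.1), neither called, and the authors' deposited table gives 0.09. The length implied by count and FPKM was 1.14 and 1.99 kb for vehicle A and B but 0.634 and 1.1 kb for BML-260 A and B, a 3.14-fold spread. Only 0.516% of the 12780 genes with at least 30 counts in every library spread as far. For Acot2 the same spread was 1.09-fold.

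**Figure D4:**
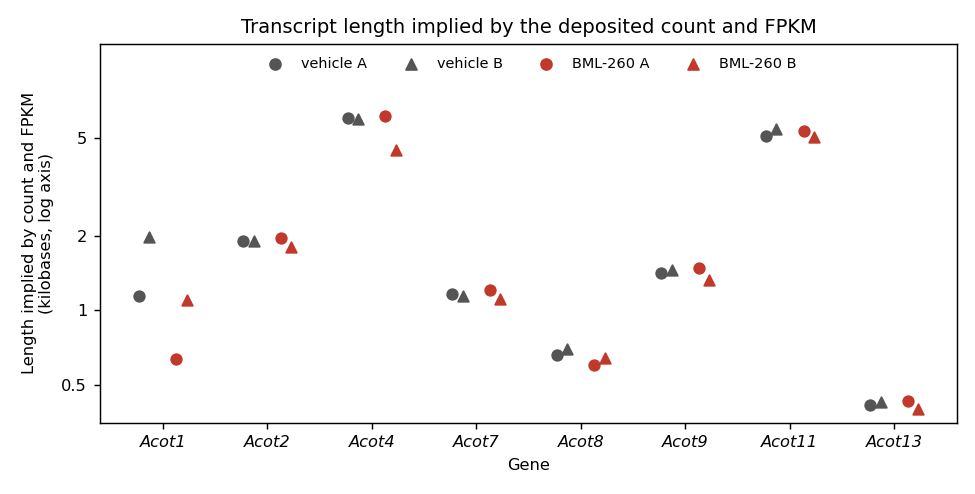
Transcript length in kilobases implied by the deposited expected count, FPKM and library total (vertical axis, log scale) for the 8 tested Acot genes in each library, with vehicle in grey, BML-260 in red, circles for libraries A and triangles for libraries B. Acot1 ranges from 0.634 to 1.99 kb among the 4 libraries, while Acot11 stays between 5.05 and 5.43 kb.

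Acot3 and Acot12 had too few reads for the test. Acot3, a peroxisomal enzyme, had 2 and 4 reads in vehicle and 1 and 0 in BML-260. Acot12, a cytosolic acetyl-CoA hydrolase known from liver, had 2 and 0 in vehicle and 1 and 0 in BML-260. In a library with 0 reads, a level of up to 3 reads is allowed, which is 0.13 CPM in vehicle B and 0.126 in BML-260 B, for counting error only. No difference was detectable at this depth for either gene.

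In all, 8 of the 10 members entered the test, and 0 passed an adjusted p of 0.05 in edgeR in either direction. Over all tested genes 0.00639% were called higher and 0% lower. With no adjustment, Acot11 was the 1 member with a p under 0.05 and higher, and 0 were lower, where 7.45% of all tested genes were higher and 3.61% lower. The authors' deposited table called 1 member higher, Acot11, and 1.84% of all tested genes. DESeq2 called 1 member higher, Acot11, and 0 lower, with 2.1% of all tested genes called higher and 0.505% lower. In CPM, groups did not overlap in 5 of the 8 members (Acot9 and Acot11 higher, Acot1, Acot4 and Acot8 lower). The share over all tested genes was 44.3%, with 22.9% higher and 21.5% lower. In FPKM, the groups of Acot1, Acot4 and Acot9 overlapped. The rule that chose the family knew this contrast, so nothing is read from these counts. The median log2 fold change of the 8 was 0.05, against 0.02 over all tested genes. For the 7 other than Acot11 the values ran from -0.29 to 0.10, with edgeR adjusted p from 0.615 to 0.958. Their 95% confidence intervals reached from 0.503 to 1.61 in fold for Acot1 and stayed within 0.581 to 1.44 for the other 6. With 2 libraries a group, differences within these bounds could not be told from none. The intervals are not adjusted for the number of genes and are no limit of detection. Acot11, with a fold change of 4.76, was not called by edgeR either.

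**Figure D5:**
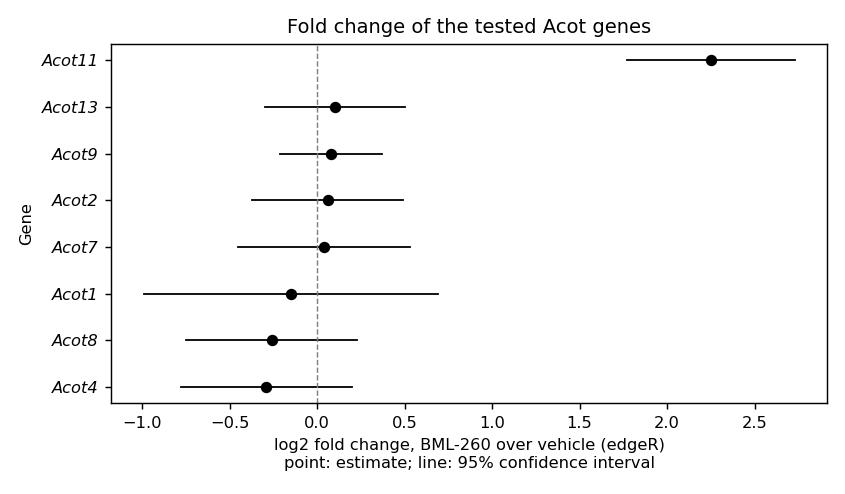
Log2 fold change of the 8 tested Acot genes, BML-260 over vehicle (horizontal axis), from edgeR with 95% confidence intervals (lines). Acot11 stands at 2.25 with an interval from 1.77 to 2.73, and the intervals of the other 7 genes all include 0.

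Genes around the thioesterases were read from 4 lists. Over all tested genes, 7.45% passed 0.05 without adjustment as higher and 3.61% as lower. DESeq2 called 2.1% of them higher and 0.505% lower, and edgeR 0.00639% and 0%. Among acyl-CoA synthetases, which make the substrates of the family, 17 of 21 were tested and 0 passed edgeR's adjusted p. Without adjustment 5 passed 0.05 as higher and 1 as lower, and DESeq2 called 2 higher and 0 lower. The median log2 fold change was 0.05. Slc27a2, a fatty acid transporter with synthetase activity, lay at 0.38 and 1.08 CPM in vehicle and at 6.12 and 7.29 in BML-260 (log2 fold change 3.18, SE 0.51, edgeR adjusted p = 0.28). Acss1, the mitochondrial acetyl-CoA synthetase, had 0.76 (SE 0.15), and Acsl3 had 0.80 (SE 0.23). Acsl1, the main synthetase for long chains in adipocytes, had 676 ± 9.0 FPKM in vehicle and 632 ± 175 in BML-260 (SD, n = 2 each).

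Genes of coenzyme A synthesis, breakdown and acyl-CoA binding centred on a log2 fold change of -0.02 (the median of 17 tested out of 18). In edgeR 0 were called, 2 passed 0.05 without adjustment as higher and 0 as lower, and DESeq2 called 1 higher and 0 lower. That gene was Pank1, a pantothenate kinase at the entry to coenzyme A synthesis, at 10.7 and 12 CPM in vehicle and at 27.4 and 25.2 in BML-260 (log2 fold change 1.21, SE 0.15, edgeR adjusted p = 0.216). Pank1 is also among the brown and beige adipocyte markers above, so its DESeq2 call is counted there too. Slc25a42, the mitochondrial coenzyme A carrier, had 0.38 (SE 0.14), and Acbd3 had 0.27 (SE 0.12).

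Of 25 genes known as PPAR alpha targets or fasting responders, a group to which Acot1, Acot2 and Acot3 belong in liver, 22 were tested. EdgeR called 0. Without adjustment 5 passed 0.05 as higher and 0 as lower, and DESeq2 called 4 higher and 0 lower. Their median log2 fold change was 0.26. Cpt1b, the muscle and brown fat form of the enzyme that admits fatty acids to mitochondria, had 2.81 (SE 0.27), Pdk4 had 2.20 (SE 0.23) and the receptor gene Ppara had 1.04 (SE 0.12). Skeletal muscle markers were higher in the same libraries, and their part in these values was not tested.

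Among other acyl-CoA thioesterases, of the 10 listed, 5 were tested, and 0 were called by edgeR or DESeq2 or passed 0.05 without adjustment. Ppt2, a lysosomal thioesterase, lay at 14.5 and 19.4 CPM in vehicle and at 18.9 and 25.3 in BML-260 (log2 fold change 0.38, SE 0.22). Acot6, the last gene of the chromosome 12 cluster, lay at 5.41 and 5.49 CPM in vehicle and at 4.62 and 4.87 in BML-260 (-0.20, SE 0.23). Them4, a mitochondrial thioesterase, had 0.25 (SE 0.26). Acot5 had 3 and 7 reads in vehicle and 0 and 3.01 in BML-260, Baat 1 and 5 against 3 and 2, and Them5 7 and 2 against 0 and 3. Ppt1 and Them6, which were tested, had 29.8 ± 0.881 and 5.98 ± 0.163 FPKM in vehicle and 29.0 ± 3.66 and 5.38 ± 0.279 in BML-260 (SD, n = 2 each).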

How the data were processed

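The authors deposited 1 table of 51912 genes for 4 libraries. It holds expected counts, deposited without normalization as estimated counts per gene, and FPKM values, per the file headers. The authors also deposited group means, log2 values of these means, and their own comparison, with its log2 fold change and p-value before and after adjustment. GRCm38.p5, RSEM 1.2.31, HISAT2 2.1.0 and DESeq2 1.10.1 appear in the submitters' processing notes, without role or order. For annotation, strand setting and filters, nothing is given in the sources used here.

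Expected counts were rounded. Treatments were compared with the two-sided quasi-likelihood test of edgeR 4.0.16 in R 4.3.3, after filterByExpr and TMM scaling, with treatment alone in the model. Adjustment was by Benjamini-Hochberg over all 15643 tested genes, at 0.05. Residual degrees of freedom were 2. A standard error is the size of the log2 fold change over the root of F. Where 1 symbol had several identifiers, that with the highest mean count was used. Implied length is the count divided by FPKM and by the library total. Coding similarity used GENCODE vM21 transcripts and promoters RefSeq windows (GRCm38.p6). Alternatives were DESeq2 1.42.0, limma 3.58.1 (voom, and log2(FPKM + 0.1) or log2(FPKM + 1)), other scalings and filters, a block for the library letter, a muscle term and fits without each library.

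The members and lists were chosen with earlier results of these data known. The genes named are the 10 members, other thioesterases with at least 1 count, the 3 genes with the smallest p of each list, the 5 nearest to Acot11 among genes with a mean log2 CPM of 1 or more, the highest marker of each cell type, and Ucp1, Ckm and Adipoq. Acsl1, the markers Gzma, Cd163 and Mertk, and the genes overlapping or next to members were named after their values were seen.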

Additional observations from a re-analysis of the deposited data

How the results depend on the processing

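Limits were the 2 libraries per group, the estimated counts of shared reads for Acot1, Acot2, Acot4 and Acot8, and the muscle RNA that differed among libraries. The log2 fold change of Acot11 stayed above 0 in all 15 alternatives, from 1.82 to 2.51. It was 1.91 on log2(FPKM + 1), 1.82 with the muscle term and 2.0 to 2.51 when each library was left out. The count of members called higher was 0 in the main test, 1 with DESeq2, 1 with no filter beyond 1 count in total, and 0 to 1 when each library was left out; no alternative called a member lower. The 1 call was Acot11 in each case, reached with DESeq2 (adjusted p = 2.43e-18), without the filter (edgeR adjusted p = 1.04e-05) and without vehicle B (0.00504). Its adjusted p over all alternatives ran from 2.43e-18 to 1. With the replicate block, the library letter as a term, the log2 fold change of Acot11 was 2.27 (edgeR adjusted p = 0.312), and the number of all genes called higher was 0. The letters did not pair the samples (correlation of deviations -0.0591). Over all genes, 1 higher and 0 lower in the main test became 328 and 79 with DESeq2, 565 and 86 without the filter, and 0 and 0 with the muscle term. Leaving out each library gave 0 to 300 higher and 0 to 9 lower, with the lone library of a group assumed to vary like the other group. The cause of these shifts was not tested. Acot4, Acot8 and Acot9 kept their direction in all 15 alternatives, Acot13 in 14, Acot1 and Acot2 in 12 and Acot7 in 8. With 30 to 40 reads per library, Acot1 is limited by depth, and Acot3 and Acot12 could not be compared.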

Other observations

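The tested protein-coding genes nearest to Acot11 on chromosome 4 had small log2 fold changes below 0 from counts, and neither was called. Ttc4, 65.6 kb away on the same strand, lay at 24.8 and 30.7 CPM in vehicle and at 27.5 and 25.3 in BML-260 (log2 fold change -0.07, SE 0.15). Pars2, 89.3 kb away, lay at 6.55 and 5.62 CPM in vehicle and at 5.06 and 4.69 in BML-260 (-0.32, SE 0.24). Its FPKM went the other way, with 3.549 and 3.272 in vehicle and 4.432 and 3.556 in BML-260, so its direction depends on the unit. Mroh7, 13.6 kb away, had at most 0.237 CPM in any library, and Fam151a had 0 counts. These genes were chosen for their position, as all protein-coding genes within 100 kb of Acot11.

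Within the chromosome 12 cluster, levels differed from gene to gene. Acot2 stood at 10.2 FPKM in vehicle and its neighbour Acot1 at 1.2, Acot4 stood at 2.43, Acot6 at 1.77, and Acot3 and Acot5, which lie between Acot4 and Acot6, at 0.089 and 0.188.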
